A study of Mus musculus with 12 samples.

Results

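The response of wild-type mice to interferon beta (IFN-β), a type I interferon, was measured as total RNA of peritoneal exudate cells 3 hours after injection. These are the mixed cells that a cold saline wash takes out of the abdominal cavity. The comparison used 6 of the 12 arrays of the series, 3 from wild-type mice injected into the peritoneal cavity with IFN-β and 3 from wild-type mice injected there with phosphate-buffered saline (PBS). The IFN-β was given as 10000 IU/ml, with no volume stated. All mice of these groups were female, 8 weeks old and of the strain written as 129S2/SvPas*BALB/c, and none carried an engineered allele. A different mouse was used for each array, in independent experiments. The other 6 arrays of the series held the same treatments in Ifnar2-/- mice, which lack a subunit of the type I interferon receptor, and served here for a test of the difference in response.

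Type I interferons signal through the receptor subunits IFNAR1 and IFNAR2 and the kinases TYK2 and JAK1. The complex ISGF3 then forms and binds interferon-stimulated response elements (ISREs), and a second kind of interferon-responsive DNA element is the gamma-activated site (GAS). In macrophages the pathway is best known for antiviral genes, and it is also known to alter metabolism and inflammatory signalling and to lower the RNA of many genes.

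Of the 41174 probes on the arrays, 27537 passed the background filter (3 of 3 arrays of either wild-type group well above it), and these represented 18145 genes. Each level is the log2 processed signal less the 75th percentile of its array, so a level of 0 is that percentile and a fold change is relative to it. Levels are given for the PBS arrays numbered 1 to 3 and then the IFN-β arrays numbered 1 to 3, and they cannot be compared between genes, which have different probes. Antiviral genes, chemokines, antigen presentation genes and others long known as interferon targets formed a list of 155 tested genes, of which 149 rose, with a median log2 fold change of 3.50. These genes were left out of the leading genes below. The other gene lists were counted with all their tested members, whether or not these are also on the classic list. The cells were not sorted, so for every result fewer cells of a type and less RNA per cell cannot be told apart.

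Between 65.2% and 70.5% of the 43379 spots per array were well above background, and 1 to 4 were saturated. Across the genes tested, levels correlated at r = 0.988 to 0.991 among PBS arrays, 0.988 to 0.993 among IFN-β arrays and 0.937 to 0.947 between the groups (genes are not independent replicates). Slide 1 held the 3 PBS arrays and IFN-β array 1, and slide 2 held IFN-β arrays 2 and 3. Gapdh, a glycolytic enzyme used as a reference, had PBS levels of 6.17, 6.81 and 6.23 and IFN-β levels of 6.42, 6.71 and 6.26, and the groups overlapped. Actb, another common reference, was called higher after IFN-β. That call was lost with quantile normalization (log2 fold change 0.05) and with no scaling between arrays (0.3). It was also lost without any single array (limma adjusted p = 0.0508 to 0.145). Ifnar1 and Ifnar2, the receptor genes, had log2 fold changes of -0.18 and 0.01 and did not pass the test, with overlapping groups (Ifnar2 had -0.40 with quantile normalization and passed it there).

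IFN-β altered a large share of the measured genes, and more of them fell than rose. In limma's moderated test with Benjamini-Hochberg adjustment over all genes, 7204 genes (39.7%) had an adjusted p under 0.05. Of these, 3224 (17.8% of the genes tested) were higher and 3980 (21.9%) were lower after IFN-β. An unadjusted p under 0.05 was reached by 8537 genes. The higher share of the calls, 44.8%, was 36.7% with quantile normalization and 30.7% with no scaling between arrays, settings that moved the median of all genes from -0.04 to -0.13 and -0.21. With normexp background correction the share was 48.6%, with 3239 genes higher and 3421 lower and a median of 0.02. The excess of falls thus depended on the processing. A fit that blocks on the slide called 2011 genes higher and 2430 lower. That estimate equals the comparison within slide 1 and rests on IFN-β array 1 alone.

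The rises reached further than the falls. The median log2 fold change was 1.00 among genes called higher and -0.88 among genes called lower. At least 2-fold differences were called for 1602 rises (8.83%) and 1654 falls (9.12%), at least 4-fold for 625 (3.44%) and 300 (1.65%), and at least 8-fold for 333 (1.84%) and 55 (0.303%). The lowered genes were thus as many as the raised ones at 2-fold and fewer at 8-fold. The 3 IFN-β values all lay above the 3 PBS values for 4489 genes (24.7%) and all below them for 5300 (29.2%).

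Outside the classic list, the largest rise of a gene measured on all 6 arrays was that of Acod1, which makes the immunometabolite itaconate. Acod1 levels were -1.74, -4.31 and -4.22 after PBS and 6.53, 5.69 and 5.71 after IFN-β, a log2 fold change of 9.40 (SE 0.61, limma adjusted p = 1.09e-06). PBS array 1, which also held the highest sum of neutrophil markers (below), stood above the other PBS arrays, and the groups were far apart. Apol9b, an apolipoprotein L gene with near-identical copies that a probe may not tell apart, went from -4.37, -4.46 and -4.72 to 3.07, 2.79 and 2.93. Its log2 fold change was 7.44 (SE 0.29, limma adjusted p = 2.72e-08). Both groups of Apol9b were tight, with no overlap. Aldh1b1, a mitochondrial aldehyde dehydrogenase, had the smallest error of the leading rises: -1.34, -1.41 and -1.57 after PBS against 3.63, 3.49 and 3.47 (log2 fold change 4.97, SE 0.10, limma adjusted p = 8.70e-10).

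The other leading rises mixed enzymes, secreted products and surface proteins, several of them better known from other tissues. They were Lrrc4, a synaptic adhesion protein (7.30), Sphk1, which makes sphingosine 1-phosphate (6.40), Chit1, a chitinase of activated macrophages (6.37), and Prss22, a serine protease (6.07). Fcgr1, the high-affinity receptor for IgG, rose by 5.71, from 1.72, 1.97 and 1.49 to 7.43, 7.26 and 7.61. Il6, the cytokine interleukin 6, rose by 5.51, from -1.42, -1.46 and -1.37 to 4.58, 4.10 and 3.61. In both genes every PBS value lay far below every IFN-β value. Adam33, a metalloprotease, and Pde7b, a phosphodiesterase that degrades cyclic AMP, each rose by 5.47, and Ms4a4d of the MS4A membrane family by 5.46. Fap, a membrane serine protease known from fibroblasts, rose by 5.45, Sct, the hormone secretin, by 5.20, and Unc45b, a myosin chaperone, by 5.05. All 15 passed limma's test with groups apart, as the naming rule required, with adjusted p between 8.70e-10 and 0.000199.

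The largest falls were those of Cables1, an adaptor of cyclin-dependent kinases, and Nr1d1, the clock repressor REV-ERB alpha. Cables1 went from 2.21, 2.54 and 2.46 after PBS to -1.84, -2.28 and -0.95 after IFN-β (log2 fold change -4.10, SE 0.35, limma adjusted p = 8.05e-06). Nr1d1 went from -0.50, 0.03 and -0.52 to -4.21, -4.24 and -3.97 (-3.81, SE 0.19, limma adjusted p = 1.73e-07). In both, every IFN-β value was far below every PBS value. Angptl4, a secreted inhibitor of lipoprotein lipase, went from 2.52, 1.74 and 1.35 to -2.02, -1.79 and -1.89. Cdkn2b, the cell cycle inhibitor p15, went from 1.81, 2.09 and 2.07 to -1.44, -1.80 and -1.81. Their log2 fold changes were -3.77 (SE 0.34, limma adjusted p = 1.36e-05) and -3.67 (SE 0.26, limma adjusted p = 2.31e-06), with no overlap.

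Lama3, a laminin chain, fell by 3.77 on the log2 scale, the uncharacterised 1810034E14Rik by 3.73, Cracr2b, a regulator of store-operated calcium channels, by 3.64, and Adarb1, the RNA editing enzyme ADAR2, by 3.48. Apbb1, an adaptor of the amyloid precursor protein, fell by 3.47, the anion transporter Slc26a11 by 3.45, and Engase, which cleaves N-glycans in the cytosol, by 3.44. Engase levels were high after PBS (4.05, 4.24 and 3.70) and 0.96, -0.27 and 0.98 after IFN-β. The receptor Gpr83 fell by 3.41, Tcim by 3.34, and Map2k6, which activates p38 kinases, by 3.08. The lipid transporter Abca6 went from 0.02, 0.67 and -0.72 to -3.23, -2.88 and -3.21. Gpr83 was the most variable of these, with -0.33, 0.86 and -0.90 against -4.03, -2.47 and -4.11. The limma adjusted p of the 15 lay between 8.25e-08 and 0.00172, and the naming rule required a call and groups apart here too.

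**Figure D1:**
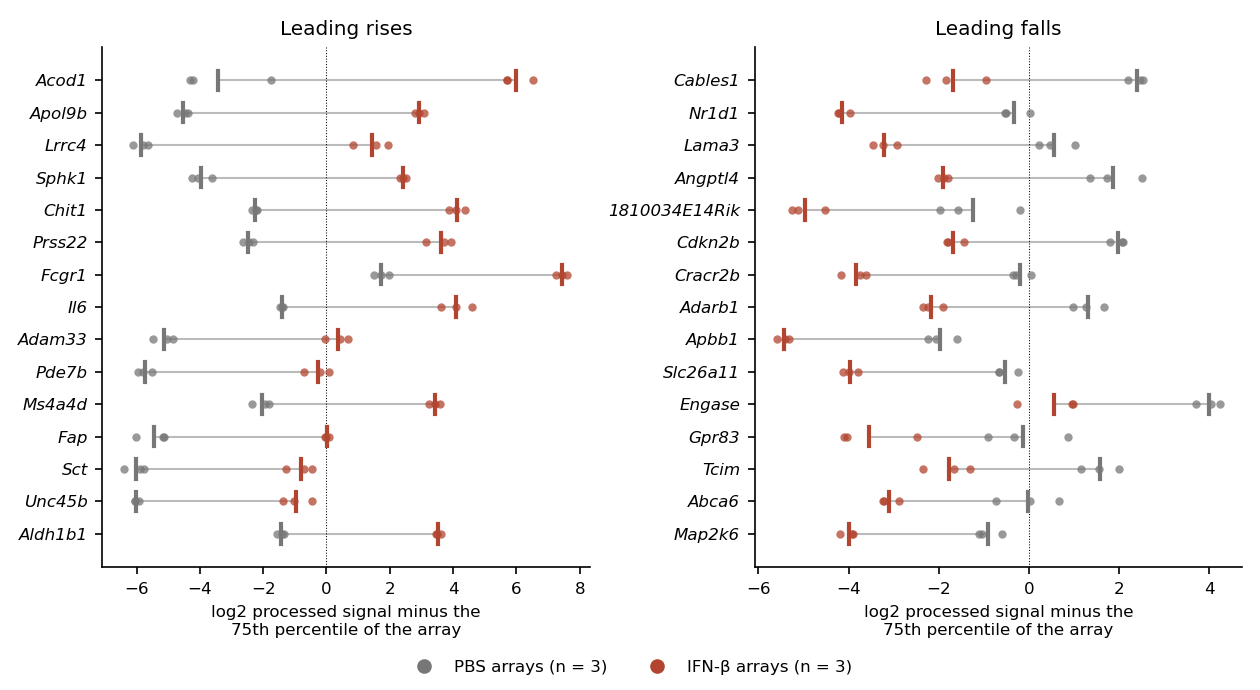
Levels of the 15 leading rises (left) and 15 leading falls (right) on each wild-type array, in log2 units above or below the 75th percentile of the array. Points are arrays (3 PBS in grey, 3 IFN-β in red) and vertical bars are group means. For every gene the 2 sets of points are apart, as the naming rule required, and the bars lie 9.40 apart for Acod1 and 3.08 apart for Map2k6.

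Some genes were not well above background on any array of a group and are given as lower bounds. A bound sets the mean of the brighter group against the mean, over the dim group's arrays, of the higher of the array's lowest signal well above background and the probe's own signal. No probe was above background on any PBS array for 96 genes, of which 93 were called higher, and on any IFN-β array for 253, of which 165 were called lower. Such genes passed the background filter only through the brighter group, so the filter set the direction and these counts are no result. Ch25h, which makes 25-hydroxycholesterol, was at least 521-fold higher after IFN-β, with levels of 2.68, 2.74 and 2.10 (limma adjusted p = 1.88e-08). Lhx2, a homeobox factor of neural and limb development, was at least 203-fold higher (1.19, 0.82 and 1.43), and Ddx4, a germ cell RNA helicase, at least 150-fold higher (0.80, 0.55 and 0.78). Dll1, a Notch ligand, was at least 53.1-fold higher (-0.67, -0.84 and -0.85), and the endothelial lipase Lipg at least 27.7-fold higher (-1.49, -1.93 and -1.76). The probes used for these genes were thus above background on each IFN-β array and on no PBS array. The remaining bounds among the 10 leading genes were 70.6-fold for BC023105, 35.4-fold for Fbxl13, 30.8-fold for Tmem171, 18.5-fold for the odorant receptor Olfr56 and 15.1-fold for Gpr15, a receptor known for T cell homing to the colon.

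In the other direction Il1r1, the signalling receptor for interleukin 1, was well above background on each PBS array (-0.19, 0.25 and -0.64) and on no IFN-β array, at least 61.1-fold lower (limma adjusted p = 1.11e-05). Sox7, a SOX transcription factor, was at least 13.5-fold lower, the semaphorin Sema6d at least 8.37-fold, Aph1c of the γ-secretase complex at least 8.29-fold, and the cytochrome P450 Cyp2d22 at least 6.41-fold. Further bounds were 6.35-fold for Sobp, 5.80-fold for 5930430L01Rik, 5.19-fold for Sytl2, an effector of Rab27 in secretion, 5.08-fold for the hyaluronidase Hyal1 and 4.90-fold for Dixdc1, a positive regulator of WNT signalling. The call of Sobp was lost with slide as a fixed block, and that of Cyp2d22 with only probes above background on all 6 arrays. For Dll1 and Cyp2d22 here, and below for Ppara, Klf15, Zfp532, Rnf180 and Pdgfb, the bound is for the probe used, since another probe of the gene was above background on at least 1 array of the dim group.

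The promoter windows of 5 of the genes are printed because they carry motifs of the pathways above and of the clock. Each run is the 250 bases before the RefSeq transcription start in GRCm38.p6, read 5′ to 3′ on the gene's own strand, with the motif in capitals. Apol9b (chr15:77728822-77729071, plus strand) is shown for its ISRE, Fcgr1 (chr3:96293970-96294219, minus strand) for its GAS and Il6 (chr5:30012864-30013113, plus strand) for its kappaB motif, the site of NF-kB. Cdkn2b (chr4:89311033-89311282, minus strand) is shown for the cyclic AMP response element (CRE) and Tef, a clock output factor (chr15:81802423-81802672, plus strand), for the E-box that clock factors, USF and MYC bind.
Apol9b: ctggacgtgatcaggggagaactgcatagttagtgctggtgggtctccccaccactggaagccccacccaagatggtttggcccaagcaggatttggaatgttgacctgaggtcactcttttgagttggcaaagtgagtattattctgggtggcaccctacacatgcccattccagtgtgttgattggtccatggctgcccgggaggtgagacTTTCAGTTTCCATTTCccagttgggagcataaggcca
Fcgr1: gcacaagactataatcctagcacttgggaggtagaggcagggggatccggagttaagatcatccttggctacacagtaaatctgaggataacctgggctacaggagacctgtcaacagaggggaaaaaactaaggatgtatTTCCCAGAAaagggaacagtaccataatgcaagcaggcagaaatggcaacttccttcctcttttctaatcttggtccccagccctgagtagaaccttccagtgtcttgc
Il6: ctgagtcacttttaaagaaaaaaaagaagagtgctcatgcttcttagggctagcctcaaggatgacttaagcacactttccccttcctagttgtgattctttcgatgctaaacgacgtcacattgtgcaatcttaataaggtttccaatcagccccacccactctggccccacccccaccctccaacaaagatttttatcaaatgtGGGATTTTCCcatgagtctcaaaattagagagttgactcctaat
Cdkn2b: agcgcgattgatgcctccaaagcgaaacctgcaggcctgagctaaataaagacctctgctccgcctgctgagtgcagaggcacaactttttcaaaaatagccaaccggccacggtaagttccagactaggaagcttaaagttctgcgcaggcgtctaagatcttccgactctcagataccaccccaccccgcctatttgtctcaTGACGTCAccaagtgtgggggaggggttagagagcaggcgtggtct
Tef: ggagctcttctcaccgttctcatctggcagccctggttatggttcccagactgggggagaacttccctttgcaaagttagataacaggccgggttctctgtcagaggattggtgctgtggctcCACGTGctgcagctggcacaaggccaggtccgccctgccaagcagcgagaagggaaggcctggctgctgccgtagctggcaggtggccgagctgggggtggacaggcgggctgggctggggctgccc
In Apol9b 2 matches to the ISRE core, written GAAA, any 2 bases and GAAA, both on the opposite strand, overlap and end 21 bases before the start. The GAS of Fcgr1 (TTCNNNGAA) ends 100 bases before the start, the kappaB motif of Il6 (GGG, any 3 bases, TTCC) 34 bases, the CRE of Cdkn2b (TGACGTCA) 38 bases and the E-box of Tef (CACGTG) 121 bases. The CRE stood in 2.81% of the promoters of genes tested and 1.79% of all promoters. A match is a run of letters and no evidence of binding.

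Motifs were counted on both strands in windows from 250 bases before to 50 after the start, for the 11227 tested genes found in the RefSeq table. A gene with several starts has several windows. The ISRE core stood in 21.6% of windows of genes at least 8-fold higher, 8.93% at 4- to 8-fold, 4.50% at 2- to 4-fold and 3.92% under 2-fold. It stood in 2.62% of windows of genes not called, and in 1.87%, 1.49% and 2.47% of windows of genes lower by under 2-fold, 2- to 4-fold and 4-fold or more. Among all genes tested the share was 3.07%, and 3.44% in all 32851 RefSeq promoters. The share was thus highest in the genes that rose furthest. Without the classic list it was 11.1%, 7.45% and 3.69% in the upper 3 classes of rises.

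GAS, as TTCNNNGAA, stood in 13.2% of windows at 8-fold rises and more and in 2.06% at falls of 4-fold or more, with 6.97% among all genes tested and 8.30% in all promoters. The kappaB motif stood in 12.0% and 3.29%, with 5.95% among all genes tested and 5.56% in all promoters. Windows of the strongest rises also differed in base composition: their median number of CpG dinucleotides was 8, against 11, 19 and 22 in the lower classes of rises and 19 over all genes tested. Falls of under 2-fold, 2- to 4-fold and 4-fold or more had medians of 21, 18 and 14. The GC box GGGCGG stood in 43.2% and 44.2% of windows in the upper 2 classes of rises against 58.3% of all tested, and TATAAA in 14.4% and 14.7% against 8.31%. At 8-fold rises and more the AP-1 motif stood in 14.8% of windows, against 5.54% of all tested. The PU.1-IRF composite motif stood in 6.4% against 2.42%, and the heat shock element in 0.8% against 0.521%. The CRE (2.4% against 2.81%) and the E-box (6.8% against 9.47%) were less frequent there. The classes thus differed in base composition and in more motifs than the ISRE core, GAS and kappaB. The part of composition in the motif shares was not tested.

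**Figure D2:**
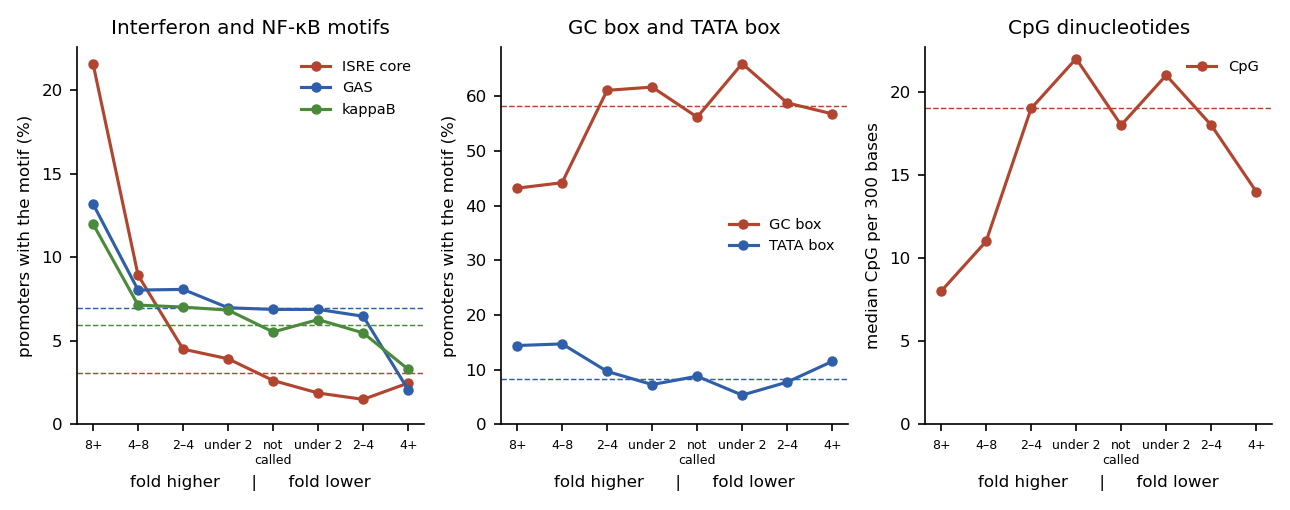
Share of promoter windows (300 bases) with an ISRE core, GAS or kappaB motif (left), with a GC box or TATA box (middle), and median number of CpG dinucleotides per window (right), for 8 classes of genes from the strongest rises on the left of each panel to the strongest falls on the right. Dashed lines give the values over all genes tested. The ISRE core falls from 21.6% at 8-fold rises to 2.62% among genes not called, and the median CpG count is 8 at 8-fold rises and 19 over all genes tested.

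The gene lists that follow were read by how many tested members rose or fell beside 17.8% and 21.9% of all genes. The lowered side was broad, and the zinc finger proteins were its largest family. These C2H2 DNA-binding proteins, many with a KRAB repressor domain, silence genes and transposable elements. Of 301 tested genes named Zfp, 146 fell (48.5%) and 18 rose (5.98%), with a median log2 fold change of -0.41. Zfp667 went from -2.99, -2.90 and -2.62 to -5.60, -5.35 and -5.50 (log2 fold change -2.65, SE 0.21, limma adjusted p = 4.50e-06), with no overlap. Among the exceptions Zfp281, a regulator of stem cell genes, rose by 2.26 (SE 0.14, limma adjusted p = 9.26e-07), and Zfp365 was at least 2.50-fold higher. Zfp975 rose by 2.53 on the probe used, while another of its probes was called lower. Further falls, at least 2.95-fold for Zfp811 and at least 1.64-fold for Zfp532, were lost with normexp background correction. Without PBS array 3 or IFN-β array 1 the Zfp811 call was also lost (adjusted p = 0.0683 and 0.0834), and the Zfp532 probe chosen with no filter on dim probes rose by 0.65 without passing the test.

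Other genes of the nucleus moved the same way in part. Of 33 histone genes, which have near-identical copies, 10 fell and 2 rose, with a median of -0.63 (-0.51 among those above background on all 6 arrays). The linker histone H1f2 went from 2.02, 1.52 and 1.87 to -0.05, -0.38 and 0.26 (log2 fold change -1.86), and H3c4 and H3c14 rose by 1.47 and 1.41. H2ac19 was at least 1.56-fold lower, a call lost with slide as a fixed block and with normexp. Of 53 chromatin modifiers 19 fell and 10 rose: the Polycomb protein Cbx7 (-1.77) and the class II deacetylase Hdac5 (-1.74) fell, and the methyltransferase Setdb2 (1.88), the repressor Prdm1 (1.46) and the acetyltransferase Kat2b (1.25) rose. Hdac11 was at least 2.11-fold lower, a call lost with normexp. Of 52 DNA repair genes 21 fell and 9 rose, with a median of -0.40 that moved to -0.16 with normexp. Ddb2, which recognises ultraviolet lesions, and the mismatch repair gene Mlh3 each fell by 1.40, while Fanca of the Fanconi pathway rose by 3.36 and Atm, the kinase of the double-strand break response, by 1.42.

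Genes of the circadian clock fell more often than they rose. In the clock BMAL1 (Arntl) and CLOCK drive Nr1d1 and the PAR bZIP factors, and REV-ERB and ROR proteins feed back on Arntl. Of 20 tested clock genes 10 fell (50%) and 3 rose, with a median of -0.38. Beside Nr1d1, the activator Rora went from -1.88, -2.33 and -2.02 to -4.60, -4.94 and -4.32 (log2 fold change -2.54, SE 0.23, limma adjusted p = 1.18e-05). Tef, whose E-box is printed above, went from 0.93, 1.25 and 0.81 to -1.16, -1.11 and -1.26 (-2.17, SE 0.16, limma adjusted p = 2.61e-06). For both genes the groups were far apart. Timeless rose by 2.92, from -1.51, -1.31 and -1.74 to 1.49, 1.37 and 1.33. Nfil3, a repressor opposed to Tef, and Arntl rose by 1.03 and 0.76, calls that were lost with slide as a fixed block, with quantile normalization and, for Arntl, without any single array (adjusted p = 0.059 to 0.11) and with no scaling. Without PBS array 1, PBS array 3 or IFN-β array 3 the Nfil3 call was lost as well (0.0505, 0.0717 and 0.0729). The E-box CACGTG stood in 25% of the clock genes' 24 promoter windows, against 9.47% of all tested and 7.15% of all promoters. It stood in 38.1% of windows of the lysosomal list and 30.8% of the aminoacyl-tRNA synthetases, lists with more rises than falls. The share was 6.15% for the Zfp genes and 8.64% at falls of 4-fold or more. The clock share thus describes the list and is no result about the response.

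Among 32 nuclear receptors 8 fell and 5 rose, shares near those of all genes. The list median of -0.27 moved to -0.07 with normexp. Thra, the thyroid hormone receptor alpha, went from 3.05, 3.42 and 3.12 to 0.61, 0.06 and 0.45 (log2 fold change -2.82, SE 0.17, limma adjusted p = 6.03e-07). Ppara, the receptor that drives fatty acid oxidation, had a probe above background on each PBS array and on no IFN-β array, at least 2.54-fold lower (limma adjusted p = 3.76e-07). The vitamin D receptor Vdr rose by 3.59 (SE 0.66), the retinoid receptor Rxrg by 2.13 and the oestrogen receptor Esr1 by 1.38. Every one of these receptors had groups that did not overlap.

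More of the listed genes of fatty acid handling fell than rose. Of 29 genes of fatty acid oxidation and PPAR targets 12 fell (41.4%) and 3 rose, with a median of -0.31. With slide as a fixed block 4 of the 29 fell (13.8%), close to the 13.4% of all genes in that setting. Angptl4 led the falls, and Acot1, a PPAR target that hydrolyses acyl-CoA, went from -2.19, -2.52 and -3.54 to -5.57, -4.95 and -5.60 (log2 fold change -2.62). Pdk4, which restrains pyruvate oxidation, went from 0.06, -0.51 and -0.80 to -2.66, -3.31 and -3.21 (-2.65, SE 0.51, limma adjusted p = 0.00211), a call lost with slide as a fixed block (-2.25). Of 28 genes of fatty acid and phospholipid synthesis 10 fell and 5 rose. The desaturase Scd2 fell by 2.89 (1.99, 1.45 and 1.60 to -1.26, -1.20 and -1.16), and the elongases Elovl7 and Elovl6 by 1.92 and 1.87. Dgat2, which makes triglyceride, the phospholipase Plaat3 and the phosphatidate phosphatase Lpin2 rose by 2.38, 1.92 and 1.77. Synthesis genes thus moved in both directions.

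More genes of autophagy, the delivery of cell contents to lysosomes, fell than rose. Of 38 tested genes 19 fell (50%) and 7 rose, with a median of -0.42. The kinases Ulk1 and Ulk2, which start autophagosome formation, fell by 1.82 (SE 0.27, limma adjusted p = 0.000356) and 1.59 (SE 0.17, limma adjusted p = 4.98e-05). Ulk1 levels were 3.63, 3.77 and 3.56 against 1.83, 1.74 and 1.94, with no overlap. The cargo receptor Optn rose by 2.92, from -2.33, -2.57 and -2.37 to 0.51, 0.21 and 0.77, Tax1bp1, another cargo receptor, by 1.31, and Atg3, an enzyme of LC3 lipidation, by 0.65. Tbc1d17 fell by 1.57 on the probe used, with another of its probes called higher and 1.59 as the mean of its probes. Of 49 lysosomal genes 9 rose and 4 fell, with a median of 0.09 that was -0.21 with quantile normalization and -0.08 with no scaling. Ctsc, which activates granzymes, and Lamp2 of the lysosomal membrane rose by 1.22 and 1.03, while the proton pump subunit Atp6v0a1 and the channel Mcoln1 fell by 1.51 and 1.01.

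Kinase signalling genes were lowered in large part. Of 48 MAP kinases, their phosphatases and their inhibitors 27 fell (56.2%) and 8 rose, with a median of -0.55. Map2k6, already named, went from -0.60, -1.03 and -1.11 to -4.18, -3.92 and -3.89. The ERK feedback inhibitor Spry2 fell by 1.47 (SE 0.23, limma adjusted p = 0.000495). The phosphatase Dusp1 fell by 1.93, from 2.40, 2.84 and 2.09 to -0.14, -0.07 and 1.74, with IFN-β array 3 close to the PBS arrays. Its adjusted p was 0.067 without PBS array 2, 0.0782 without IFN-β array 1 and 0.0722 without IFN-β array 2. Among the rises were Map2k1, the kinase that activates ERK (1.52), Spred1, an inhibitor of the RAS pathway (1.48), and the JNK gene Mapk9 (1.33).

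Of 47 genes of phosphoinositide 3-kinase (PI3K), AKT and mTOR signalling 17 fell and 11 rose. Pik3ap1, an adaptor that couples toll-like receptors to PI3K, rose by 3.13, from -0.83, -0.69 and -0.90 to 2.19, 2.31 and 2.45. Sgk3, a kinase downstream of PI3K, rose by 1.48. Ddit4, a stress-induced inhibitor of mTORC1, fell by 2.12 (5.05, 4.92 and 3.93 to 2.32, 3.06 and 2.16), and Pik3cg, the catalytic subunit below G protein-coupled receptors, by 2.03. Of 43 regulators of G protein signalling and the adenylyl cyclase pathway 19 fell (44.2%) and 5 rose, with a median of -0.35. The arrestin Arrb1 (-1.55), the kinase regulatory subunit Prkar2b (-1.51) and the cyclic AMP sensor Rapgef3 (-1.33) fell. Pde7b and Crem, a cyclic AMP-responsive repressor, rose by 5.47 and 1.96.

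Growth and guidance pathways were mixed. Of 54 genes of the WNT, Notch and Hedgehog pathways 19 fell and 10 rose. The WNT receptor Fzd7 fell by 2.39 (-1.20, -1.09 and -0.85 to -3.36, -3.57 and -3.39), the WNT antagonist Sfrp1 rose by 2.60 and the effector Tcf7l2 by 1.45. Of 45 genes of the TGF-beta and BMP pathway 11 fell (24.4%) and 7 rose (15.6%), shares near those of all genes. The receptors Acvr2b and Tgfbr1 fell by 1.95 and 1.64 and the receptor Acvr1 rose by 1.23.

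Genes of the primary cilium and centrosome and of ion channels fell at shares close to those of the zinc finger and clock genes. Of 61 cilium and centrosome genes 29 fell (47.5%) and 7 rose, with a median of -0.44 (-0.23 with normexp). Bbs12, of the chaperone complex behind Bardet-Biedl syndrome, went from -2.68, -2.45 and -2.52 to -4.36, -4.12 and -4.30 (log2 fold change -1.71, SE 0.12, limma adjusted p = 2.25e-06). Tmem216 of the ciliary gate and the centrosomal linker Cep250 fell by 1.52 and 1.22. An exception was Tmem67, also of the ciliary gate, which rose by 4.31, from -3.07, -2.87 and -2.41 to 1.56, 1.35 and 1.66. Of 48 channel and pump genes 25 fell (52.1%) and 8 rose, with a median of -0.46. The sodium pump subunit Atp1b1 fell by 2.35 (SE 0.16, limma adjusted p = 1.85e-06) and the proton channel Hvcn1 by 1.86. The intracellular channel Clic4 rose by 2.36. Of 247 solute carriers 69 fell (27.9%) and 34 rose: Slc26a11 led the falls, and the lysosomal peptide transporter Slc15a3, the arginine transporter Slc7a2 and the mitochondrial glutamate carrier Slc25a22 rose by 3.67, 3.36 and 3.19. With slide as a fixed block, beside the 13.4% of all genes, falls were called for 30.6% of the Zfp genes, 31.6% of the autophagy genes, 31.2% of the MAP kinase list, 29.2% of the channels, 25% of the clock genes, 24.6% of the cilium list and 23.3% of the regulators of G protein signalling.

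**Figure D3:**
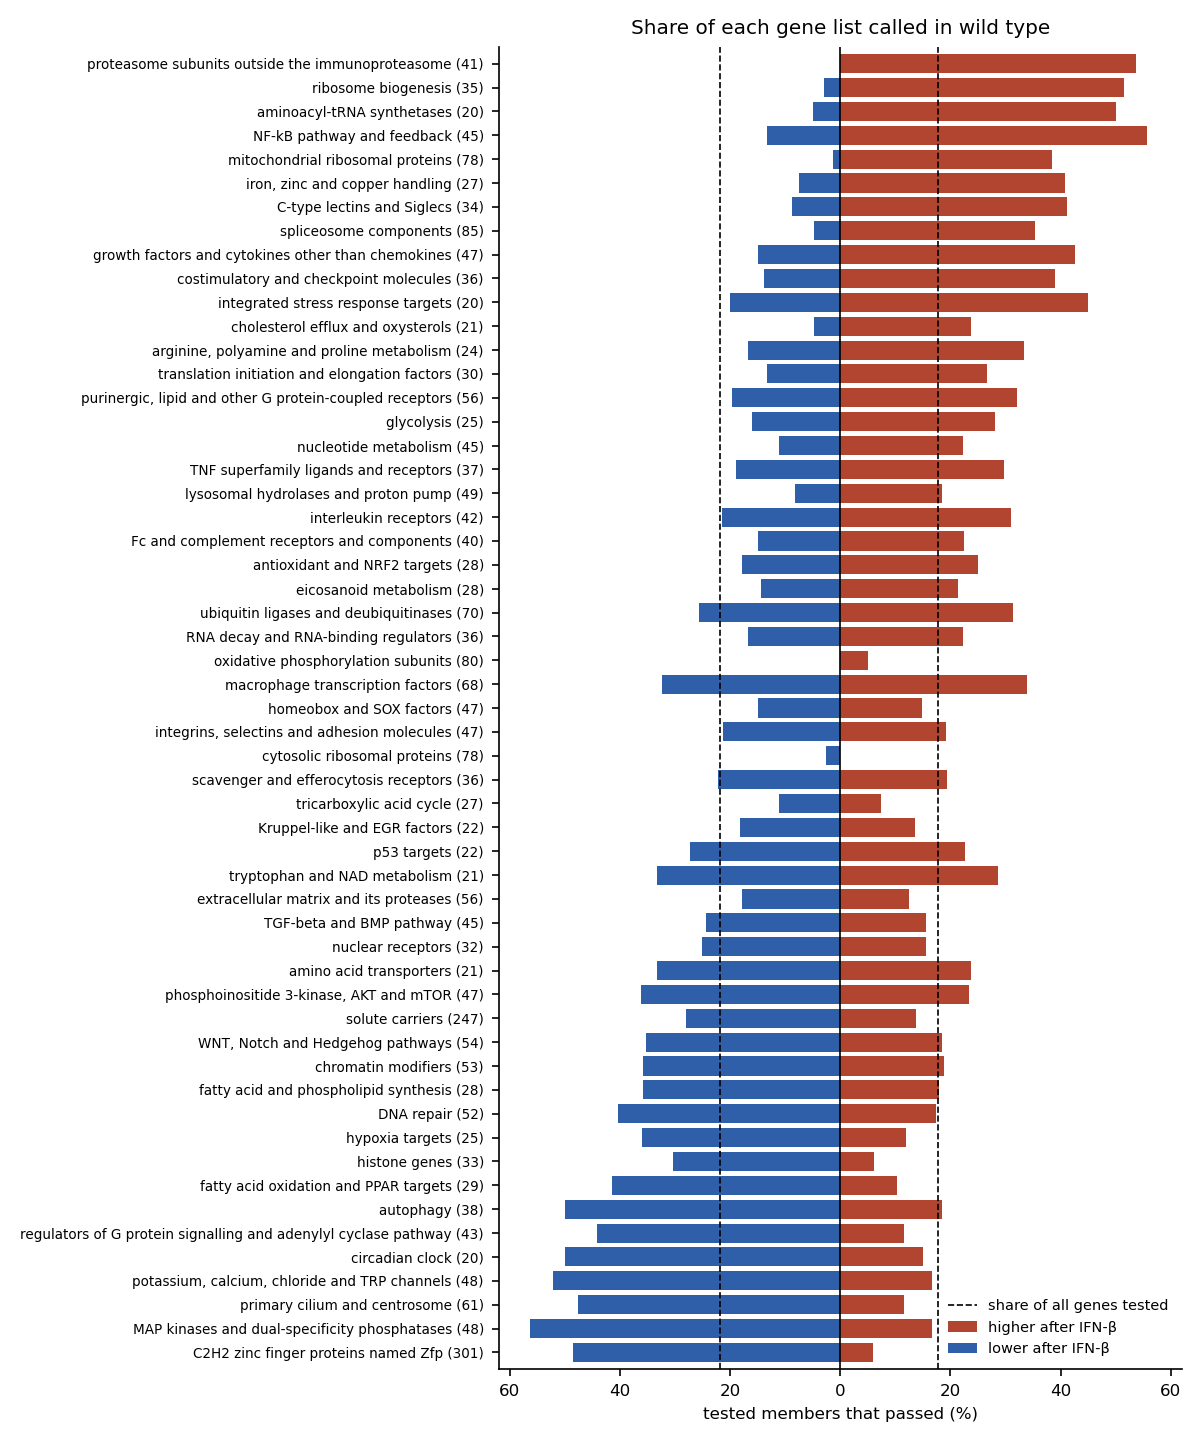
Share of the tested members of each gene list with at least 20 of them (number in brackets; the classic and marker lists and 1 list not reported here are not drawn) called higher (red, to the right) or lower (blue, to the left) after IFN-β in wild type, with adjusted p under 0.05. Dashed lines mark the shares over all genes tested, 17.8% higher and 21.9% lower. Lists are ordered by the difference between the shares, from proteasome subunits (53.7% higher, 0% lower) to the Zfp genes (5.98% higher, 48.5% lower).

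On the raised side, the machinery that makes ribosomes, charges transfer RNAs and degrades proteins held more rises than falls, by a margin that depended on the scaling. Of 35 ribosome biogenesis genes 18 rose (51.4%) and 1 fell, with a median of 0.54. Noc4l, a factor of small subunit assembly, went from 0.66, 0.93 and 0.83 to 2.17, 2.34 and 1.97 (log2 fold change 1.35, SE 0.18, limma adjusted p = 0.000207). The exception, Polr1c, a subunit shared by RNA polymerases I and III, fell by 0.50. Of 20 cytosolic aminoacyl-tRNA synthetases 10 rose (50%) and 1 fell, with a median of 0.45. Wars, the tryptophanyl enzyme and a known interferon target, rose by 2.46 (SE 0.17, limma adjusted p = 1.54e-06), Rars, the arginyl enzyme, by 1.40 and Kars, the lysyl enzyme, by 1.11. The single fall, Sars at -0.39, was lost with slide as a fixed block and without PBS array 3 or IFN-β array 1 (adjusted p = 0.0577 and 0.0631). With no scaling between arrays 4 ribosome biogenesis genes (11.4%) and 4 synthetases (20%) were called higher, beside 12.0% of all genes in that setting. With slide as a fixed block 4 (11.4%) and 5 (25%) were, beside 11.1%. The share of ribosome biogenesis genes was thus close to that of all genes in both settings.

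Of 41 proteasome subunits outside the immunoproteasome 22 rose (53.7%) and 0 fell, with a median of 0.39. The core subunit Psma5 went from 3.78, 4.08 and 3.86 to 5.44, 5.33 and 5.21 (log2 fold change 1.43, SE 0.13, limma adjusted p = 1.28e-05), and the activator Psme4 rose by 1.32. With no scaling 11 of the 41 were called higher (26.8%), and with slide as a fixed block 9 (22.0%). Of 85 spliceosome components 30 rose (35.3%) and 4 fell, led by Prpf38a (2.20), while 18 were called higher and 14 lower with quantile normalization and 13 and 6 with no scaling. Of 78 mitochondrial ribosomal proteins 30 rose (38.5%) and 1 fell, with a median of 0.19 that was -0.03 with quantile normalization. There 20 were called higher and 19 lower, and with no scaling 8 and 4. With no scaling the higher share was 10.3% for the mitochondrial ribosomal proteins and 15.3% for the spliceosome, beside 12.0% of all genes. With slide as a fixed block the shares were 15.4% and 21.2%, beside 11.1%. Mrpl16 and Mrpl30 rose by 1.12 and 1.10, and Mrps25 fell by 1.25.

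The neighbouring housekeeping groups gave few calls with the 75th-percentile scaling and more falls with quantile normalization. Of 78 cytosolic ribosomal proteins 0 rose and 2 fell, with a median of -0.05, and with quantile normalization 0 were called higher and 22 lower. The falls, Rpl39l (-1.20) and Rpl27a (-0.55), were both lost with slide as a fixed block. The Rpl39l call was also lost without PBS array 2, IFN-β array 1 or IFN-β array 2 (adjusted p = 0.0752, 0.0683 and 0.0742), and the Rpl27a call without PBS array 1 (0.0515). Of 80 subunits of oxidative phosphorylation 4 rose and 0 fell, with a median of 0.11 that changed sign with quantile normalization (-0.24, with 1 called higher and 24 lower) and with no scaling (-0.06). Ndufs4 of complex I rose by 0.69. Of 27 genes of the tricarboxylic acid cycle 2 rose and 3 fell (1 and 9 with quantile normalization), and the falls included the cytosolic enzymes Idh1 (-1.68, SE 0.24, limma adjusted p = 0.000319) and Aco1 (-1.06). A gene that was not called is not shown to be unaltered.

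**Figure D4:**
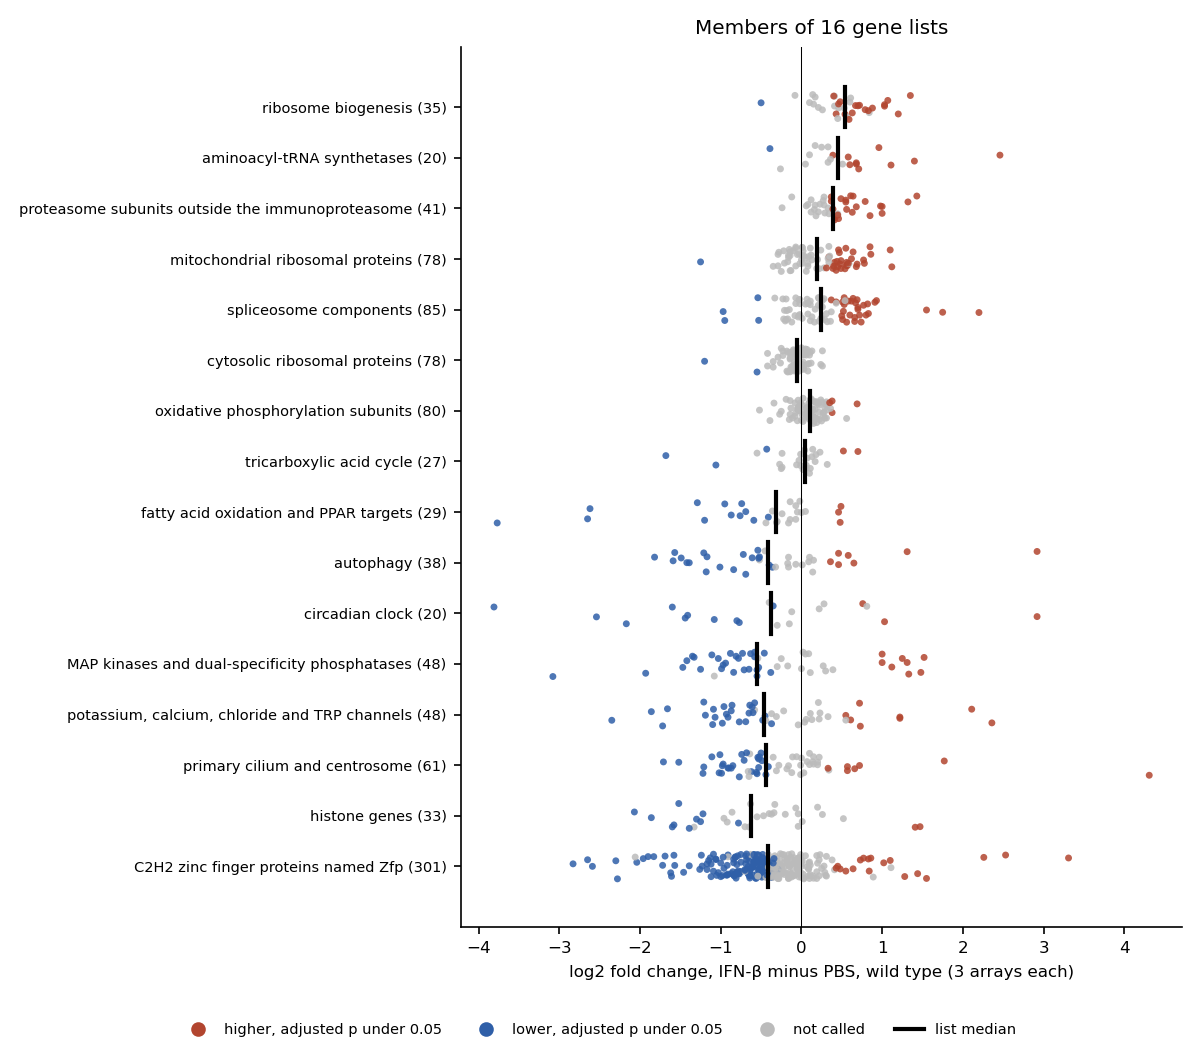
Log2 fold change (IFN-β minus PBS, wild type, 3 arrays each) of every tested member of 16 gene lists, with the number of members in brackets. Points are genes, coloured by limma's call at an adjusted p under 0.05, and black bars are list medians. Genes below background in a group are drawn at their measured value. The medians run from 0.54 for ribosome biogenesis through -0.05 for cytosolic ribosomal proteins to -0.55 for MAP kinases and -0.63 for histone genes.

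Metabolic genes outside lipid handling moved in both directions, with a few large rises. In glycolysis 7 of 25 rose and 4 fell, with a median whose sign changed with scaling (0.10, and -0.23 with quantile normalization). The transporter Slc2a6 rose by 2.77 (SE 0.14, limma adjusted p = 2.04e-07). The first-step kinases Hk2, from 0.95, 1.09 and 1.04 to 3.35, 3.26 and 3.22, and Hk3 rose by 2.25 and 1.98. In tryptophan and NAD metabolism 6 of 21 rose and 7 fell. Ido1, which degrades tryptophan, rose by 4.76 and Nampt, the rate-limiting enzyme of NAD salvage, by 3.63, from 1.02, 0.98 and 1.22 to 4.74, 4.69 and 4.70. Kynu, further down the tryptophan pathway, and Nmrk1, which feeds nicotinamide riboside into NAD, fell by 1.65 and 1.07.

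Genes of arginine and pterin metabolism moved in both directions. Of 24 genes of arginine, polyamine and proline metabolism 8 rose and 4 fell. Smox, a spermine oxidase, rose by 3.05, Gch1, the first enzyme of tetrahydrobiopterin synthesis, by 3.02 (0.28, 0.60 and 0.32 to 3.39, 3.48 and 3.38), and the arginase Arg1 by 2.92. Nos3, a nitric oxide synthase that uses arginine, was at least 2.87-fold lower, a call lost with normexp. Spr and Pts, the enzymes that follow Gch1 in tetrahydrobiopterin synthesis, fell by 0.88 and 0.53. The Pts call was lost with slide as a fixed block, with no filter on dim probes, with the mean of its probes and without any single array (adjusted p = 0.0595 to 0.132). In nucleotide metabolism 10 of 45 rose and 5 fell. The nucleotidase Nt5c3 and the purine nucleoside phosphorylase Pnp rose by 3.70 and 3.55, and the uridine phosphorylase Upp1 was at least 2.96-fold higher. Nt5e, the ecto-enzyme CD73 that makes adenosine, fell by 2.06, from 3.39, 3.65 and 3.36 to 1.88, 1.60 and 0.73. The Pnp probe may not tell apart the near-identical copies of this gene in the mouse.

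Of 27 genes of iron, zinc and copper handling 11 rose (40.7%) and 2 fell, with a median of 0.48. Mt1, a metallothionein, rose by 1.91 on the probe used, a call lost with the mean of its probes (0.09), and ceruloplasmin (Cp) rose by 1.91. Mt2 rose by 1.98, a call lost with slide as a fixed block. Of 25 hypoxia targets 9 fell and 3 rose: the oxygen sensors Egln3 and Egln1 fell by 2.63 and 1.20 (with Ddit4, described above, between them), and Pfkfb3, an activator of glycolysis, and Hif1a rose by 1.73 and 1.06. Among 28 antioxidant and NRF2 targets 7 rose and 5 fell, with Keap1, the inhibitor of NRF2, higher by 1.71 and Osgin1, an NRF2 target, lower by 1.80. In eicosanoid metabolism 6 of 28 rose (21.4%) and 4 fell (14.3%). The cyclooxygenase Ptgs2 was called higher with overlapping groups (-3.73, -8.07 and -6.94 against -3.20, -3.41 and -4.05). Only 1 of its 3 PBS arrays was above background, so the fitted 2.70 is no exact fold. The call was lost with slide as a fixed block, with the 6 wild-type arrays alone (adjusted p = 0.0788), with no filter on dim probes and without any 1 array other than PBS array 1 (adjusted p = 0.0523 to 0.122). The prostaglandin E synthase Ptges rose by 2.37, and Ptger2, a prostaglandin E receptor, fell by 1.04.

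The NF-kB list held mostly rises. Of 45 genes of the pathway and its feedback 25 rose (55.6%) and 6 fell, with a median of 0.50. Peli1, a ubiquitin ligase of toll-like receptor signalling, went from 1.59, 1.79 and 1.76 to 4.09, 4.28 and 3.95 (log2 fold change 2.40, SE 0.12, limma adjusted p = 2.22e-07). The nuclear IkB protein Bcl3 and the A20-binding protein Tnip3 each rose by 2.16, while Peli2, a paralogue of Peli1, fell by 1.23 (limma adjusted p = 0.00258). The kappaB motif stood in 37.7% of this list's promoter windows, against 5.95% of all genes tested. That share describes the list and is no result about the response. Of 20 targets of the integrated stress response 9 rose and 4 fell, with a median of 0.69. Atf3, its stress-induced factor, rose by 3.00 (0.99, 1.15 and 1.82 to 4.32, 4.21 and 4.43) and the mitochondrial folate enzyme Mthfd2 by 1.92, while Ddit4 fell and Cebpg, a partner of stress-response factors, fell by 1.17. Of 22 p53 targets 5 rose (22.7%) and 6 fell (27.3%), shares near those of all genes. The polo-like kinase Plk2 and the cell cycle inhibitor Cdkn1a rose by 2.62 and 2.23, while Ddit4 fell and the sestrin Sesn1 fell by 1.70.

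Of 68 macrophage transcription factors 23 rose and 22 fell. Batf2, an interferon-responsive partner of JUN, rose by 4.03 (SE 0.23, limma adjusted p = 5.10e-07). The MAX partners moved apart: Mxd1 rose by 3.07 and Mxd4 fell by 2.83 (2.77, 2.90 and 2.92 to -0.04, -0.03 and 0.17). Maf, a factor of resident macrophages, rose by 2.66, and Cebpa, a factor of myeloid differentiation, fell by 1.54. Kruppel-like and EGR factors gave 3 rises (13.6%) and 4 falls (18.2%) among 22 tested, both below the shares of all genes. Klf8 rose by 1.79, and Klf12 and Klf7 fell by 2.10 and 1.19. Klf15 was at least 2.65-fold lower, a call lost with normexp and turned to 0.31 (not called) with no filter on dim probes. Of 36 regulators of RNA decay 8 rose (22.2%) and 6 fell (16.7%), shares near those of all genes. The decapping enzyme Dcp2, the RNA-destabilising protein Zfp36 and the exonuclease Xrn1 rose by 1.95, 1.44 and 1.36, and the deadenylation adaptor Tob1 fell by 1.89. Of 70 ubiquitin ligases and deubiquitinases 22 rose and 18 fell, among them the mitochondrial ligase Marchf5 (3.28, from 1.21, 1.48 and 1.51 to 4.67, 4.62 and 4.75), Fbxw17 (2.59), Fbxl20 (-1.75) and the atrophy-linked ligase Fbxo32 (-1.73, below Rnf180, which was at least 2.81-fold lower and lost its call with normexp).

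Cytokines and growth factors rose more often than they fell. Of 47 outside the chemokines 20 rose (42.6%) and 7 fell, with a median of 0.22. Only 34 of the 47 were above background on all 6 arrays, and among these 12 were called higher and 5 lower, with a median of 0. Il15, a growth factor of NK cells and memory T cells, rose by 4.66, from -2.77, -2.38 and -2.66 to 2.10, 1.95 and 2.11 (SE 0.17, limma adjusted p = 2.01e-08). Edn1, the vasoconstrictor endothelin, was at least 5.92-fold higher. Pdgfa, a platelet-derived growth factor, fell by 2.78 (1.36, 1.01 and 1.42 to -1.27, -1.99 and -1.28), and Il16, a CD4 ligand, by 1.72. Pdgfb was at least 1.57-fold lower, a call lost with normexp and with no filter on dim probes. Of 56 genes of the extracellular matrix and its proteases 7 rose (12.5%) and 10 fell (17.9%), both below the shares of all genes. Lama3 and Hyal1, described above, led the falls, and the collagenase Mmp13 rose by 4.65 and the proteoglycan Vcan by 3.73 (lost with slide as a fixed block).

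Cytokine and chemokine receptors moved in both directions. Of 42 interleukin receptors 13 rose and 9 fell. Il15ra rose by 3.58 and Il12rb1 by 2.99. Osmr, the oncostatin M receptor, rose by 4.10 and was above background on 2 of 3 PBS arrays. Il1r1 led the falls, Il1rl2, the interleukin 36 receptor, fell by 2.18 with 1 of 3 IFN-β arrays above background, and Sigirr, an inhibitor of interleukin 1 signalling, fell by 0.99. Of 18 chemokine receptors 7 fell (38.9%) and 3 rose. The atypical receptor Ccrl2 rose by 3.78. The fractalkine receptor Cx3cr1 fell by 3.02 (-1.43, -2.34 and -2.24 to -5.03, -5.07 and -4.98), Ccr7, which guides cells to lymph nodes, by 2.06 and Cxcr3 by 1.95. None of these groups overlapped.

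Among 56 purinergic, lipid and other G protein-coupled receptors 18 rose and 11 fell. P2ry13, an ADP receptor, and P2ry14, a receptor for UDP-glucose, rose by 3.97 and 2.63, on either side of the orphan receptor Gpr141 (2.98). The ATP receptor P2ry2 fell by 2.18 and S1pr1, which guides lymphocyte egress, by 1.71. Of 37 TNF family ligands and receptors 11 rose and 7 fell, led by the death ligand Tnfsf10 (5.91, from -4.49, -3.82 and -4.15 to 1.78, 1.49 and 2.00), Cd40 (2.63) and Tnf (2.49). Of 36 costimulatory and checkpoint molecules 14 rose (38.9%) and 5 fell. Slamf8 rose by 4.07 (SE 0.14, limma adjusted p = 1.63e-08), the PD-1 ligand Cd274 by 3.44 and Lgals9, a galectin that binds TIM-3, by 3.19. Scavenger and efferocytosis receptors gave 7 rises (19.4%) and 8 falls (22.2%) among 36 tested, shares near those of all genes. Axl, a receptor for dying cells, rose by 4.54, from -2.92, -3.72 and -3.85 to 1.08, 0.62 and 1.44. Megf10, another such receptor, was at least 2.37-fold lower, a call lost with normexp. Cd163, the haemoglobin receptor, fell by 1.86, with -2.37, -2.44 and -0.58 on the IFN-β arrays, of which the third stood nearest to the PBS values of 0.31, -0.06 and -0.07.

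The MS4A family, tetraspanning membrane proteins of immune cells, held rises and no falls. Of 11 tested members 7 rose (63.6%) and 0 fell, with a median of 1.33. Ms4a4c went from 0.60, 0.04 and 0.51 to 5.35, 5.39 and 5.31, and Ms4a6d from 2.68, 3.34 and 2.71 to 5.98, 6.07 and 6.37, log2 fold changes of 4.97 (SE 0.30, limma adjusted p = 7.33e-07) and 3.23 (SE 0.20, limma adjusted p = 8.03e-07). Of 34 C-type lectins and Siglecs 14 rose (41.2%) and 3 fell. The sialic acid receptor Siglec1 rose by 3.77 and the activating NK receptor Klrk1 by 2.72. Siglech was called lower from near background on the PBS arrays to below it on the IFN-β arrays, a call lost with normexp, and Klrb1a and Klrb1b, of the NK1.1 family, fell by 1.64 and 1.13.

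Fc receptors were split. Fcgr4, a receptor for IgG2, rose by 3.82 and Serping1, the C1 inhibitor, by 3.87. Fcer2a, the low-affinity IgE receptor CD23, fell by 2.45 (1.25, 1.38 and 1.90 to -0.88, -0.96 and -0.97) and Cr2, the complement receptor CD21, by 2.09. Fcer2a and Cr2 are also B cell markers. Of 18 B cell markers 6 fell and 0 rose, and their summed signal, in units of the array's 75th percentile, was 487 to 629 on PBS arrays and 492 to 586 on IFN-β arrays, with overlap. The part of B cell number in these falls was not tested.

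Marker sums of the other cell types are given beside the counts of their lists. A sum follows its brightest members and is no measure of cell number. Large peritoneal macrophage markers summed to 862 to 1180 on PBS arrays and 994 to 1110 on IFN-β arrays, and Adgre1 (F4/80) had a log2 fold change of -0.22 that did not pass. Within that list 2 of 19 rose and 4 fell: Timd4, a phosphatidylserine receptor, rose by 1.41, and Naip1, an inflammasome sensor, and the endothelin receptor Ednrb fell by 2.29 and 2.19. Monocyte markers summed to 118 to 153 and 523 to 540, with no overlap, and 9 of 11 rose, led by Fcgr1 and Ms4a4c, which the text above lists among the leading rises and MS4A genes. Chil3 rose by 3.46, with unequal PBS values of -0.43, -1.66 and -3.04. Dendritic cell markers summed to 16.5 to 21.0 and 70.1 to 85.6, where Bst2, an antiviral gene, rose by 3.41. The median of that list was -0.36, and 2 of 14 rose and 6 fell, Fscn1 by 2.30 among them.

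T and NK cell markers summed to 12.3 to 14.3 and 14.5 to 16.6 with 4 of 24 higher and 11 lower and a list median of -0.55. Granzyme genes rose, Gzmb by 4.06 and Gzma by 1.98, and the T cell genes Thy1 and Tcf7 fell by 2.09 and 1.96, while Cd3e did not pass the test (-0.28). Neutrophil markers summed to 10.7 to 116 on PBS arrays and 19.0 to 28.5 on IFN-β arrays. PBS array 1 held the high value, and S100a8 was 3.82, 1.74 and 0.56 on the PBS arrays. Erythroid markers ranged from 6.65 to 64.7 and from 48.9 to 516, with PBS array 3 low and IFN-β array 3 high. Mast cell (232 to 311 and 236 to 281), eosinophil (87.7 to 127 and 104 to 109), platelet (145 to 196 and 161 to 179) and mesothelial markers (4.99 to 7.78 and 4.52 to 5.97) overlapped between the groups. Siglech, Wt1, Gp5 and Klf1 were below background on every IFN-β array. The part of any of these cells in the gene lists above was not tested.

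**Figure D5:**
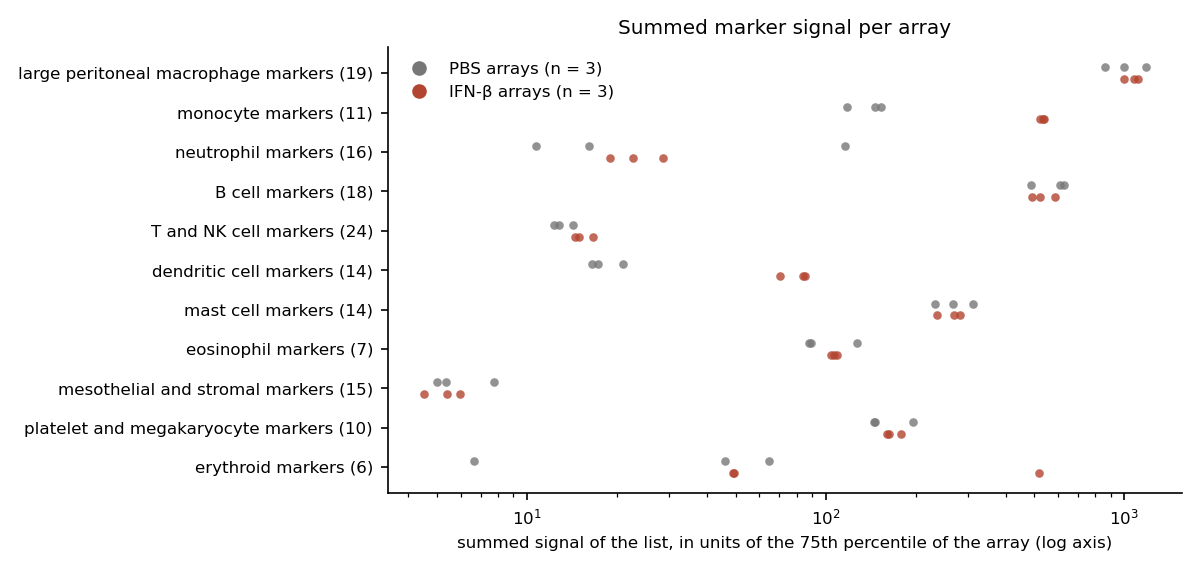
Summed processed signal of 11 marker lists on each wild-type array, in units of the array's 75th percentile, on a log axis. Points are arrays (3 PBS in grey, 3 IFN-β in red) and the number of markers is in brackets. Only the monocyte, dendritic cell and T and NK cell lists show groups apart, and the highest erythroid value, 516, is IFN-β array 3.

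The difference from the response without Ifnar2 was tested in the same limma fit. Of the 3224 genes called higher in wild type 1635 (50.7%) responded differently without Ifnar2, and of the 3980 called lower 1485 (37.3%) did, beside 18.0% of all genes tested. The median log2 fold change without Ifnar2 was 0.12 for the genes called higher in wild type and -0.22 for those called lower. Among the 15 leading rises 14 passed this test and among the 15 leading falls 11. All these genes were chosen by the wild-type response, which enters the difference, so the counts are a description. Aldh1b1 rose by 4.97 in wild type against -0.05 without Ifnar2 (difference 5.02, SE 0.15, limma adjusted p = 2.83e-08), and Cdkn2b had -3.67 against -0.50 (difference -3.18, SE 0.37, limma adjusted p = 0.000207). Acod1 and Il6 also rose without Ifnar2, by 6.29 and 3.47, with differences of 3.11 and 2.04. Sphk1 rose by 6.40 and had 3.99 without Ifnar2 (difference 2.41, SE 1.18, limma adjusted p = 0.203), and the falls of Engase, Gpr83, Abca6 and Map2k6 likewise did not differ by the test. Arrays 2 and 3 of both Ifnar2-/- groups lay on slide 3, which held none of the wild-type arrays.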

How the data were processed

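Total RNA was hybridised to 1-colour Agilent mouse arrays. Per the file headers and the submitters' processing notes, the authors extracted signals with Agilent Feature Extraction 9.5.3.1. The deposited processed signal intensity is background-subtracted on a linear scale and has not been scaled between arrays. The deposited value table held the same intensities, with 0 of 45018 values differing, and added nothing. No genome build was needed for the probes.

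Control and outlier spots (88 to 117 per wild-type array) were left out. Processed signals were taken to log2 and lowered by each array's 75th percentile (659 to 851 on the wild-type arrays). Spots of a probe were averaged. A probe was kept when well above background on all 3 arrays of a wild-type group, and a gene was represented by its brightest kept probe. Probes were named through RefSeq accessions (23075 of 41174), symbols (6582) or older symbols (3077), and 8440 kept the file's name. Of 6324 genes with several probes, 98 had probes called in opposite directions. limma 3.58.1 (R 4.3.3) was fitted on all 12 arrays with 4 group means, with a two-sided test and Benjamini-Hochberg adjustment over 18145 genes at a threshold of 0.05. On simulated data for this comparison, with 18145 genes, 71 of 100 genes changed by 1 on the log2 scale and 89 of 100 changed by 2 were recovered, and 8 of 17945 unchanged genes were called. The simulation had independent normal noise, no slide effect and a far smaller share of changed genes than the 39.7% called. Its rates therefore need not hold for the real comparison. With 3 arrays a group, the number of arrays limits the precision. Signals near background are the least certain, and those at the background limit are given as bounds.

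The members and gene lists were chosen with earlier results of these data known. Kdr, a receptor for VEGF entered by error, was taken out of the C-type lectins and Siglecs after its values were seen. In each list the called members with the 3 largest rises and 3 largest falls could be named, and outside the classic list the 15 largest rises and falls on all 6 arrays and the 10 largest bounds each way, with groups apart. Gapdh, Actb, the receptor genes and some cell markers were named whatever their values. Some genes that this rule names and 1 gene list are not reported here. Lists are described by counts and medians beside those over all genes, without a list test. Promoter sequences are from RefSeq on GRCm38.p6. Alternatives were normexp background correction, quantile normalization, no scaling, the 6 wild-type arrays alone, slide or replicate number as a block, other probe filters, the mean of a gene's probes and each array left out.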

Additional observations from a re-analysis of the deposited data

Results flagged for a closer look

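The response to IFN-β differed between wild-type and Ifnar2-/- mice by limma's test of the difference for 1635 genes called higher in wild type and 1485 called lower. Among the leading rises the log2 difference, wild type minus Ifnar2-/-, was 7.28 for Apol9b, 6.57 for Chit1, 6.15 for Prss22, 5.90 for Lrrc4, 5.64 for Adam33, 5.62 for Unc45b, 5.54 for Ms4a4d and 5.35 for Fcgr1. It was 5.21 for Fap, 5.11 for Sct, 5.02 for Aldh1b1, 4.91 for Pde7b, 3.11 for Acod1 and 2.04 for Il6, the last pair being genes that also rose without Ifnar2. Among the leading falls it was -3.92 for Tcim, -3.31 for Angptl4, -3.18 for Cdkn2b, -3.06 for Slc26a11, -3.02 for Adarb1 and -2.98 for Cables1. It was -2.86 for 1810034E14Rik, -2.67 for Nr1d1, -2.63 for Lama3, -2.29 for Cracr2b and -1.90 for Apbb1. The genes were chosen by the wild-type response, which enters the difference. The test for a single outlying value was not applied to groups of 3 arrays.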

How the results depend on the processing

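All 7204 calls kept their direction with slide as a fixed or random block, with no scaling and without any single array. With the 6 wild-type arrays alone and with the replicate block the fold change is the same by construction, and each lost 5 named calls. With slide as a fixed block 2011 genes were higher and 2430 lower, and 63 of the 385 named calls were lost. Leaving out single arrays gave 2642 to 2901 higher and 3176 to 3535 lower, and lost 16 to 29 named calls. Replicate numbers did not pair the arrays (correlations of deviations 0.04, -0.12 and -0.12), and the replicate block gave 3133 higher and 3870 lower. Normexp lost 24 named calls, quantile normalization 11 and no scaling 14.

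List medians, less the median of all genes, moved beyond the spread between arrays in some settings. With normexp they were -0.35 for autophagy, -0.25 for the cilium and -0.28 for Zfp genes. With quantile normalization they were -0.42 for fatty acid oxidation, -0.33 for autophagy, -0.43 for the clock, 0.27 for the proteasome and -0.29 for Zfp genes. With no filter on dim probes they were -0.50 for autophagy, -0.45 for the clock, -0.62 for MAP kinases, -0.54 for channels, -0.52 for the cilium and -0.47 for Zfp genes. With the mean of a gene's probes they were -0.13 for autophagy and 2.23 for the MS4A family. Leaving out single arrays gave -0.58 to -0.46 for MAP kinases and -0.40 to -0.33 for autophagy. The direction changed for Atp5pb (-0.06) and Ifnar2 (-0.40) with quantile normalization, Klf15 (0.31) and Zfp532 (0.65) with no filter, and Tbc1d17 (1.59) with the mean of its probes. The cause was not tested. Calls lost with normexp were mostly of genes near background, where signal limits what can be measured.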
